A study of Mus musculus with 6 samples.

Results

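The collagen and laminin chains are among the gene families that build the extracellular matrix of the testis: the fibrils of the interstitium and the basement membrane around each cord. They were taken by gene symbol from the platform's annotation, as every probe named for a collagen chain or for a laminin alpha, beta or gamma chain. The rule used no measured values, but the members were chosen with earlier results of these data known. The rule found 110 probes of 50 genes among 45281 probes, of which 34885 carried 1 gene symbol. By chain type, 11 genes encode fibrillar collagens (I, II, III, V, XI, XXIV and XXVII), 17 encode basement membrane chains (collagen IV, the laminins, and collagens XV and XVIII), and 22 encode other collagens.

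The chains were measured in testis RNA of FVB mice at postnatal day 4, on Illumina bead arrays. The label of 3 arrays was Foxo1 null and that of the other 3 wild type, and 1 slide held all 6. The labels name no further allele, no treatment, no Cre driver and no pooling, and they do not say whether Foxo1 was deleted in every cell or in some. Nothing in the labels says that the 3 arrays of a group came from separate animals, so p-values measure the spread between these samples only. Foxo1 encodes a forkhead transcription factor, and the study asked what it does in spermatogonial stem cells, which lie on the basement membrane.

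Each array had a median of 43 beads per probe and detected between 20107 and 21665 probes, 59 to 66 of them collagen or laminin probes. Foxo1 was called at both of its tested probes, in opposite directions. Probe ILMN_2656498 had 6.37, 5.83 and 6.69 log2 units in null arrays, against 8.08, 8.07 and 8.19 in wild-type arrays (-1.81, SE 0.22, n = 3 per group, adjusted p = 0.0273, limma with Benjamini-Hochberg). Probe ILMN_2509340 had 8.82, 8.57 and 8.76 in null arrays, against 5.69, 5.42 and 4.96 in wild-type arrays (3.36, SE 0.20, adjusted p = 0.00221, limma). It was detected on 2 of 3 wild-type arrays, at scanner intensities of 133 to 136 in that group, near background. Its difference ranged from 1.88 to 3.52 over the alternative settings. The places of these probes in the gene were not analysed here, so neither checks the deletion by itself, and the call at ILMN_2656498 held without null replicate 1 and was lost on leaving out each of the others (limma, adjusted p between 0.106 and 0.115). Null and wild type denote these labels throughout.

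Collagens are trimers of chains wound into a triple helix. Fibrillar collagens assemble into banded fibrils that give tissue its tensile strength, and collagen V sits inside collagen I fibrils and limits their width. Collagen IV forms the sheet-like network of basement membranes, as trimers of Col4a1 with Col4a2, of Col4a3, Col4a4 and Col4a5, or of Col4a5 with Col4a6. Laminins are cross-shaped trimers of 1 alpha, 1 beta and 1 gamma chain that bind integrins and dystroglycan on cells. In the testis, Sertoli cells and peritubular myoid cells jointly lay down the basement membrane of the cords, and fibroblasts and myoid cells make most of the fibrillar collagen.

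The genes for the most widespread collagen IV chains lie side by side on opposite strands, with starts close together, so their promoters are shown first. Of the 50 genes, 38 had an entry among the promoter windows of RefSeq, which run from 250 bases before to 50 bases after each annotated start in build GRCm38.p6. The windows of Col4a1 (chr8:11312777-11313076, minus strand) and Col4a2 (chr8:11312555-11312854, plus strand) share 78 bases, printed in capitals on each gene's own strand, and the annotated starts lie 21 bases apart. Each annotated transcript begins on the far side of the other's start, so their first bases run across each other:
Col4a1: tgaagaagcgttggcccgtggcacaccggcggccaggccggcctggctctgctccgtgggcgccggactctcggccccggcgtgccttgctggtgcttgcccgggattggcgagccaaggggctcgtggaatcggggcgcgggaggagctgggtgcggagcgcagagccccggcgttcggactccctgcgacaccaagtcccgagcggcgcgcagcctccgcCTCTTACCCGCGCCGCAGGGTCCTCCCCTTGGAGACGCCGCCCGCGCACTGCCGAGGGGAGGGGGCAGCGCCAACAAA
Col4a2: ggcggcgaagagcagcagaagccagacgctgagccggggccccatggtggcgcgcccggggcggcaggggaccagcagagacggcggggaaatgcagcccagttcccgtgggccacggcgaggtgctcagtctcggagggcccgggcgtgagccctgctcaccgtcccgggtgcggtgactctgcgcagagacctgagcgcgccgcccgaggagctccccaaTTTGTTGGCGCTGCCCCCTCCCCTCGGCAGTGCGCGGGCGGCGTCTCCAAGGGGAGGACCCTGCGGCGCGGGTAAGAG

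Col4a5 and Col4a6, on chromosome X, also lie on opposite strands, with starts 1343 bases apart and no shared window. The FOXO core motif GTAAACA, searched on both strands, occurred in 1 of 42 windows of these genes (2.38%), against 3.65% of all 32851 windows. That window belongs to Col6a1 (chr10:76725995-76726294, minus strand), the chain of the beaded-filament collagen VI, and the motif is in capitals:
Col6a1: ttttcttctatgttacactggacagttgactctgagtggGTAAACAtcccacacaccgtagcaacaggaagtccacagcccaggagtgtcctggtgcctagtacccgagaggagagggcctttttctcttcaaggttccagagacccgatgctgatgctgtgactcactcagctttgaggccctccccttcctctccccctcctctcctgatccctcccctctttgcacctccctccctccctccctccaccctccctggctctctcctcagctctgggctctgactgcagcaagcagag

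The GC box GGGCGG, on either strand, occurred in 26 of the 42 windows (61.9%), against 35.7% of all windows. The CCAAT box was found in 14 (33.3%), against 37.4% of all windows. The TATA box TATAAA was found in 5 (11.9%), against 13.6% of all windows. These letter matches describe the windows and show no binding.

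Of the 110 probes, 63 were detected on at least 3 of the 6 arrays (detection p under 0.05) and were tested. They represent 42 of the 50 genes, 9 fibrillar, 16 basement membrane and 17 other. The comparison of null with wild type asks which of these matrix genes differ in testes labelled as lacking Foxo1. By limma with Benjamini-Hochberg adjustment over all 20597 tested probes, 0 of the 63 probes were lower and 0 higher in null arrays, where the calls over all tested probes were 0.126% on the low side and 0.00971% on the high side. With an unadjusted p under 0.05, 3 of the 63 were lower and 7 higher, where the shares over all tested probes were 4.75% lower and 4.03% higher. In bulk tissue, fewer cells of a type and less RNA per cell cannot be told apart.

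With 1 probe per gene, the brightest tested one, 28 of the 42 genes had values above 0 (null minus wild type, log2), against 52.1% of all 11145 tested genes. Over all tested genes 0.162% were called lower and 0.00897% higher, against 0 and 0 of the 42. With an unadjusted p under 0.05, 3 of the 42 were lower (Col9a3, Col11a2 and Col22a1), against 4.76% of all tested genes, and 5 were higher (Col14a1, Col6a5, Col3a1, Col5a2 and Col1a1), against 4.26%. The groups did not overlap at 3 genes with null below, against 8.08% of all tested genes, and at 2 with null above, against 6.81%. The median was 0.08 over the 42 genes and 0.01 over all tested genes. By class the medians were 0.31 for fibrillar chains, with 7 of 9 values above 0, 0.05 for basement membrane chains, with 10 of 16 above 0, and 0.09 for other chains, with 11 of 17 above 0. The fibrillar median is the value of Col5a3, detected on 3 of 6 arrays, and was 0.12 without background correction, 0.15 with an offset of 50, 0.11 on the authors' normalized values, 0.16 with array weights and 0.070 with no filter. The count of values above 0 depends on the scaling: with median scaling it was 35 of 42, but the median of all tested probes then moved by 0.11, and 70.2% of all tested probes lay above 0 in place of 51.3%. Relative to the median of all tested probes it was 27 of 42 with median scaling and 28 of 42 with quantile normalization. Without wild-type replicate 3 it was 21 of 42, and the median of the other chains was -0.08.

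**Figure D1:**
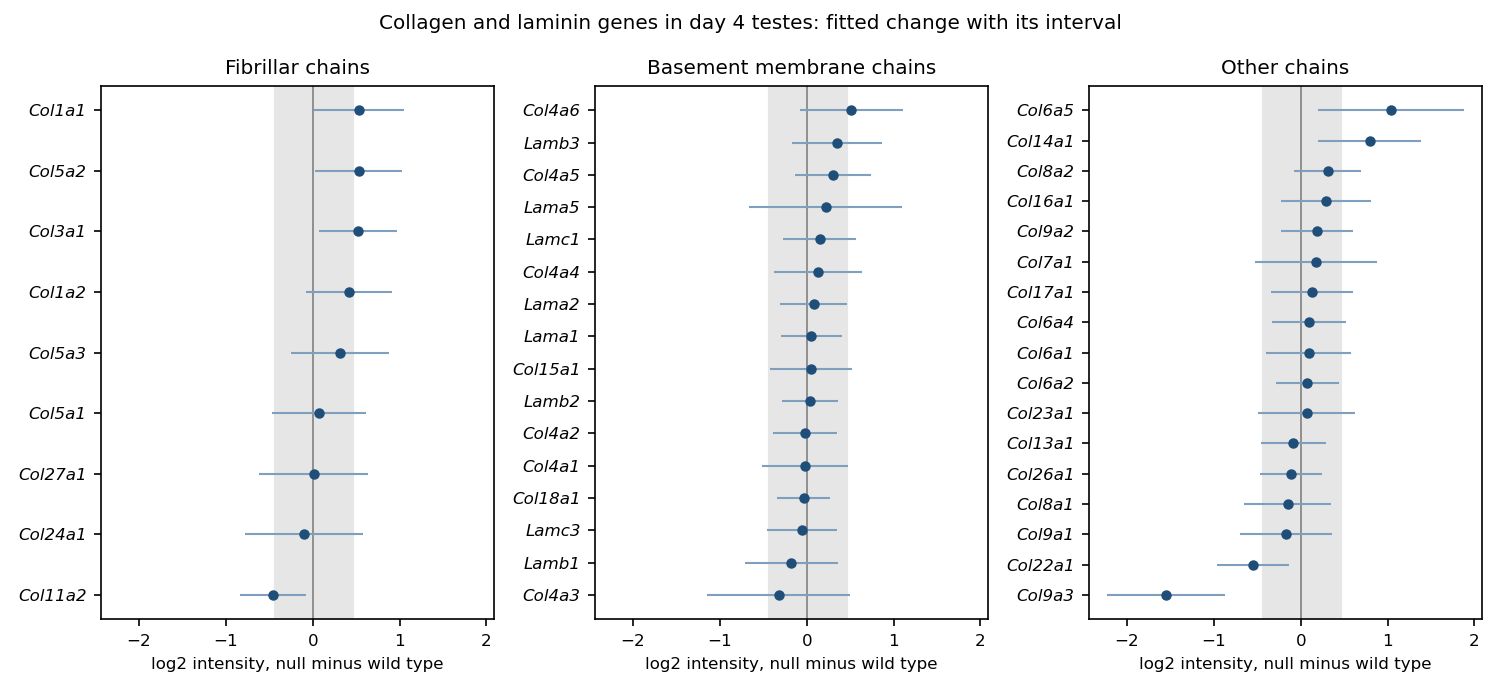
Fitted log2 difference, null minus wild type, for the 42 tested genes, in 3 panels by chain type; points are limma estimates, bars their 95% intervals, and the grey band spans the 5th to the 95th percentile of all tested genes (-0.43 to 0.46). Most genes lie within the band, and Col9a3 at -1.55 and Col6a5 at 1.04 lie farthest from 0.

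Among the fibrillar chains, the collagen I, III and V chains all had values above 0, against 52.1% of all tested genes. They lay between 0.07 and 0.53, with a median of 0.47 over 6 genes, and none passed the adjusted test. The lowest, Col5a1, was at -0.09 to 0.29 with 1 array left out. The other tested fibrillar chains were at -0.46 (Col11a2), -0.10 (Col24a1) and 0.01 (Col27a1). Col1a1, the major chain of collagen I, had 12.41, 11.55 and 12.19 log2 units in null arrays, against 11.36, 11.65 and 11.54 in wild-type arrays. Null replicates 1 and 3 lay above every wild-type array and null replicate 2 lay among them. The difference was 0.53 (SE 0.23, n = 3 per group, 95% interval 0.01 to 1.05, adjusted p = 0.558, limma). Col1a2, its partner chain, had 9.69, 9.31 and 9.97 in null arrays, against 9.27, 9.50 and 8.96 in wild-type arrays. Its groups overlapped through the same null replicate 2, and the difference was 0.42 (SE 0.21, adjusted p = 0.638, limma).

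Collagen III forms fibrils of its own and mixed fibrils with collagen I. Its single chain gene Col3a1 had 12.24, 11.99 and 12.56 log2 units in null arrays, against 11.70, 11.99 and 11.54 in wild-type arrays. Null replicate 2 and wild-type replicate 2 were level. The difference was 0.52 (SE 0.20, 95% interval 0.07 to 0.97, adjusted p = 0.478, limma), and the other tested probe gave 0.42 (SE 0.25). In scanner intensity, before normalization, this gene read 5099, 4233 and 7025 in null arrays, against 3223, 3865 and 2905 in wild-type arrays. On that scale the groups did not overlap, but the arrays also differed in brightness. The median intensity of all probes was 119, 135 and 141 in null arrays, against 116, 124 and 132 in wild-type arrays.

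The collagen V chains had differences from 0.07 to 0.53. Col5a2 had 9.20, 8.47 and 8.93 in null arrays, against 8.60, 8.30 and 8.12 in wild-type arrays, a difference of 0.53 (SE 0.22, adjusted p = 0.535, limma), while its other tested probe gave 0.11 (SE 0.24). Col5a1, the chain common to nearly all collagen V trimers, had 12.58, 11.81 and 12.37 in null arrays, against 12.21, 12.45 and 11.88 in wild-type arrays. The wild-type arrays lay within the range of the null arrays, and the difference was 0.07 (95% interval -0.47 to 0.61). Col5a3, a chain of restricted occurrence, was detected on 2 of 3 null arrays and 1 of 3 wild-type arrays. It had 5.12, 5.55 and 4.95 in null arrays, against 5.37, 4.61 and 4.69 in wild-type arrays (0.31, SE 0.25).

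The fibrillar chains of cartilage were at or near background. Col2a1, the defining collagen of cartilage, was detected by none of its 3 probes on more than 1 array, and Col11a1 by none of its 4 probes on any array. Col11a2 was dim, with scanner intensities of 126 to 159 in null arrays and 130 to 160 in wild-type arrays, which overlap. After normalization its null arrays (5.17, 5.14 and 5.44) lay below the wild-type arrays (5.49, 5.79 and 5.85), a difference of -0.46 (SE 0.17, adjusted p = 0.452, limma), which was -0.15 without background correction. The remaining fibrillar chains, Col24a1 and Col27a1, had values of -0.10 (SE 0.30) and 0.01 (SE 0.28).

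**Figure D2:**
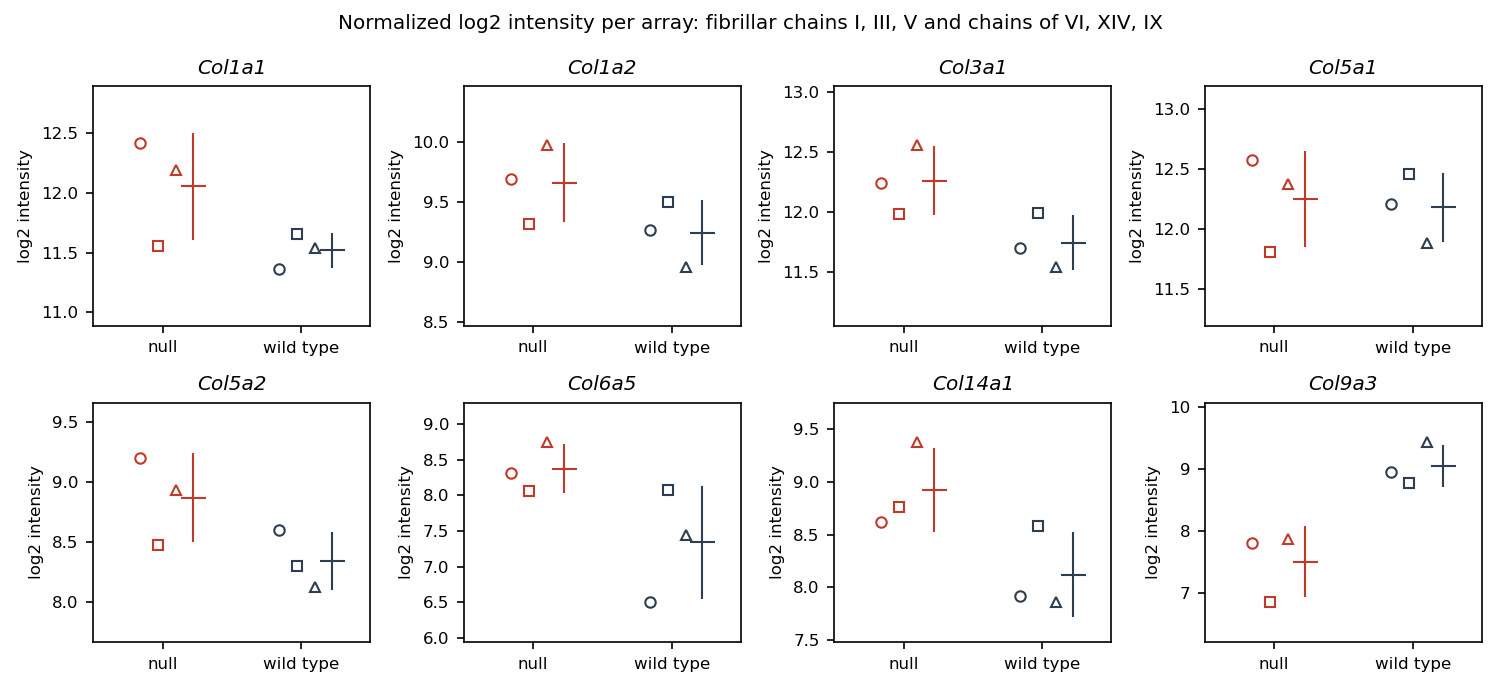
Normalized log2 intensity of 8 collagen genes on each array, null left of wild type; circles, squares and triangles are replicates 1, 2 and 3, and the bars give the mean with its SD (n = 3). At Col1a1, Col1a2 and Col5a2 the square of null replicate 2 is the lowest null value and lies within the range of the wild-type arrays, while at Col9a3 no null value reaches the lowest wild-type value.

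In the basement membrane class the chains of the common collagen IV network had differences near 0. Col4a1 had 13.12, 12.31 and 12.88 log2 units in null arrays, against 12.84, 12.87 and 12.65 in wild-type arrays, a difference of -0.02 (SE 0.22, 95% interval -0.52 to 0.47, adjusted p = 0.992, limma). Col4a2, whose promoter window overlaps that of Col4a1, had 12.54, 12.17 and 12.34 in null arrays, against 12.54, 12.36 and 12.23 in wild-type arrays, a difference of -0.02 (SE 0.16, 95% interval -0.39 to 0.35). In both genes null replicate 1 was the highest and null replicate 2 the lowest of the null arrays.

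The minor collagen IV chains make up the networks known from kidney glomeruli and from mature seminiferous tubules. Col4a3 had 6.25, 7.32 and 7.74 in null arrays, against 7.04, 7.55 and 7.69 in wild-type arrays, and null replicate 1 stood apart from the other arrays. Its difference was -0.32 (SE 0.36), and 0.10 without that array. Col4a4, its partner in the trimer, had 10.37, 10.46 and 10.86 in null arrays, against 10.10, 10.37 and 10.83 in wild-type arrays (0.13, SE 0.22), and its other tested probes gave -0.04 and -0.15.

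The X-linked pair lay above 0 at every tested probe. Col4a5 had 9.90, 9.78 and 10.05 in null arrays, against 9.32, 9.97 and 9.53 in wild-type arrays, a difference of 0.30 (SE 0.19, adjusted p = 0.735, limma). Col4a6 had 6.14, 6.54 and 7.14 in null arrays, against 6.09, 6.35 and 5.84 in wild-type arrays, a difference of 0.51 (SE 0.26, adjusted p = 0.634, limma). The other Col4a6 probe was at 0.83 (SE 0.32, adjusted p = 0.494, limma), the only basement membrane probe with an unadjusted p under 0.05, and its groups overlapped. At these probes of both genes, except the other Col4a5 probe at 0.11, null replicate 3 was the highest array.

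Of the laminin chains 8 genes were tested, with a median of 0.07, a range from -0.18 to 0.35 and groups that overlapped at all 8. Lama1, the alpha chain of the laminin of early epithelia, had 10.25, 9.88 and 9.95 in null arrays, against 10.02, 10.001 and 9.90 in wild-type arrays (0.05, SE 0.15, 95% interval -0.30 to 0.41). Lama2, the alpha chain typical of muscle basement membranes, had 10.46, 10.01 and 10.42 in null arrays, against 10.32, 10.14 and 10.18 in wild-type arrays (0.08, SE 0.17). Lama5, the alpha chain of most epithelia, was dim and spread widely, with 5.83, 7.35 and 7.18 in null arrays, against 6.15, 6.72 and 6.85 in wild-type arrays (0.22, SE 0.39). Its null replicate 1 was the lowest of all 6 arrays.

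The tested beta and gamma chains also had overlapping groups. Lamb1 had 9.41, 8.68 and 9.45 in null arrays, against 9.21, 9.59 and 9.26 in wild-type arrays (-0.18, SE 0.23), with null replicate 2 below all others. Lamb2, which takes the place of Lamb1 in mature basement membranes, had 9.81, 9.65 and 9.70 in null arrays, against 9.57, 9.69 and 9.79 in wild-type arrays (0.04, SE 0.14). Lamc1, the gamma chain of most laminins, had 11.32, 10.75 and 11.24 in null arrays, against 10.85, 11.02 and 10.99 in wild-type arrays (0.15, SE 0.18). Lamc3, a gamma chain found in testis among few other tissues, had 10.44, 9.96 and 10.39 in null arrays, against 10.46, 10.27 and 10.21 in wild-type arrays (-0.06, SE 0.18). Lamb3, a chain of epidermal laminin detected on 2 of 3 null arrays and 1 of 3 wild-type arrays, had 4.93, 5.72 and 5.24 in null arrays, against 5.13, 5.03 and 4.68 in wild-type arrays (0.35, SE 0.23). Lama4, the alpha chain of blood vessels, was not tested because none of its 5 probes was detected on more than 1 array.

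Collagens XV and XVIII carry heparan or chondroitin sulphate chains and bind to the edge of basement membranes. Col18a1, the source of endostatin, had the smallest standard error of the 42 genes, with 12.66, 12.53 and 12.60 in null arrays, against 12.62, 12.66 and 12.62 in wild-type arrays (-0.03, SE 0.13, 95% interval -0.34 to 0.27). Col15a1 had 9.98, 9.33 and 9.30 in null arrays, against 9.50, 9.56 and 9.40 in wild-type arrays (0.05, SE 0.20), with null replicate 1 above all other arrays.

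**Figure D3:**
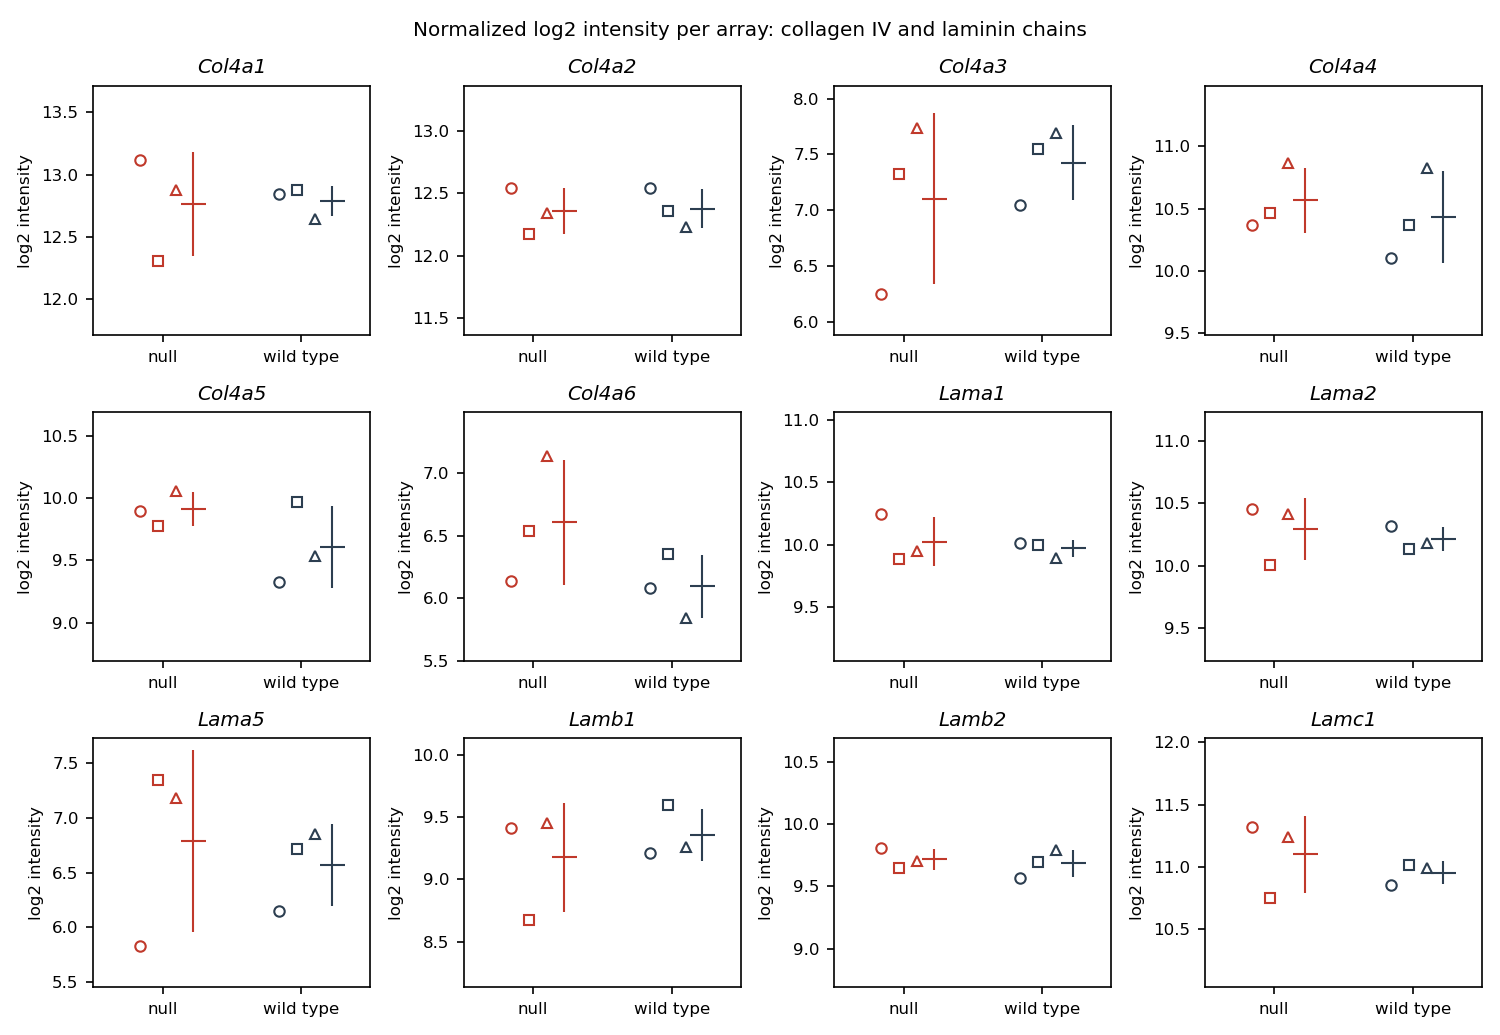
Normalized log2 intensity of 6 collagen IV and 6 laminin chain genes on each array, null left of wild type; circles, squares and triangles are replicates 1, 2 and 3, and the bars give the mean with its SD (n = 3). The groups overlap in every panel, and single arrays stand apart at Col4a3 and Lama5 (null replicate 1) and at Lamb1 (null replicate 2).

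The other collagens held the widest range of values. Col9a3, a chain of collagen IX, which coats cartilage fibrils and whose transcripts are also known from the developing mouse testis, had 7.80, 6.84 and 7.86 log2 units in null arrays, against 8.95, 8.78 and 9.43 in wild-type arrays. Its scanner intensities were 333, 215 and 385 in null arrays, against 552, 495 and 749 in wild-type arrays. The groups did not overlap on either scale, with the null arrays low. The difference was -1.55 (2.93-fold, SE 0.30, 95% interval -2.23 to -0.88), with an unadjusted p = 0.000656 and an adjusted p = 0.126 over all probes (limma), which does not pass. Of 17 alternative settings 5 called it lower and 12 did not, with an adjusted p from 0.0267 to 0.340 (limma). Groups that do not overlap, with null below, were found at 3 of the 63 collagen and laminin probes and at 7.73% of all tested probes.

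The partner chains of Col9a3 in collagen IX had smaller differences, with intervals that include 0. Col9a2 had 8.82, 8.41 and 9.01 in null arrays, against 8.58, 8.62 and 8.48 in wild-type arrays (0.19, SE 0.18, 95% interval -0.23 to 0.60). Col9a1 was near background, detected on 1 of 3 null arrays and 2 of 3 wild-type arrays (-0.17, SE 0.23). The difference between these chains and Col9a3 was not tested.

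Collagens XIV, XVI and XXII belong, with collagen IX, to the fibril-associated collagens, which bridge fibrils to each other and to other matrix. Col14a1 had 8.62, 8.76 and 9.37 in null arrays, against 7.92, 8.58 and 7.86 in wild-type arrays. The null arrays lay above the wild-type arrays, with a difference of 0.80 (SE 0.26, 95% interval 0.20 to 1.39, adjusted p = 0.392, limma), and the other probe gave 0.50 (SE 0.20, adjusted p = 0.519, limma). Col16a1 had 11.62, 11.12 and 11.85 in null arrays, against 11.12, 11.56 and 11.04 in wild-type arrays, a difference of 0.29 (SE 0.23) with overlapping groups. Col22a1 was dim, with scanner intensities of 146 to 168 in null arrays and 148 to 196 in wild-type arrays, and normalized values of 5.75, 5.59 and 5.66 in null arrays, against 6.02, 6.05 and 6.58 in wild-type arrays. The groups separated after normalization, with null low, but not before it, and the difference was -0.55 (SE 0.18, adjusted p = 0.40, limma), or -0.22 without background correction.

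Collagen VI forms beaded microfilaments around cells in nearly all connective tissue. Of its common chains, Col6a1 had 13.45, 12.99 and 13.38 in null arrays, against 13.18, 13.52 and 12.83 in wild-type arrays (0.09, SE 0.21). Col6a2 had 11.39, 11.21 and 11.34 in null arrays, against 11.27, 11.41 and 11.02 in wild-type arrays (0.08, SE 0.16), and its other tested probe was at 0.38 (SE 0.19). The other tested Col6a1 probes were at 0.15 (SE 0.19) and 0.21 (SE 0.43). The alternative chain Col6a5 had 8.32, 8.06 and 8.75 in null arrays, against 6.49, 8.07 and 7.45 in wild-type arrays. Wild-type replicates spanned more than the difference itself, which was 1.04 (2.05-fold, SE 0.37, 95% interval 0.20 to 1.88, adjusted p = 0.44, limma), and null replicate 2 was level with wild-type replicate 2. Col6a4, another alternative chain, was near background, with 5.57, 5.27 and 5.53 in null arrays, against 5.51, 5.53 and 5.03 in wild-type arrays (0.10, SE 0.18).

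Among the remaining chains, Col8a2, of the short-chain collagen of vessel walls and the cornea, had 8.97, 9.03 and 9.07 in null arrays, against 8.44, 8.96 and 8.74 in wild-type arrays. The groups did not overlap but nearly touched, and the difference was 0.31 (SE 0.17, adjusted p = 0.67, limma), with the other probe at -0.24 (SE 0.27). Groups that do not overlap, with null above, were found at 2 of the 63 probes, those of Col14a1 and Col8a2, and at 6.23% of all tested probes. Col26a1, first described in testis and ovary, had 10.38, 10.03 and 10.09 in null arrays, against 10.38, 10.29 and 10.16 in wild-type arrays (-0.11, SE 0.16). The transmembrane collagens Col13a1, Col17a1 and Col23a1, the anchoring-fibril collagen Col7a1, and Col8a1 had values from -0.15 to 0.18, each smaller than its standard error.

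In all, 8 of the 50 genes had no tested probe. Col10a1, Col11a1, Col19a1, Col28a1 and Col6a6 were detected on no array, and Col2a1, Col25a1 and Lama4 on at most 1 array by any probe. Of 16 genes with several tested probes, 11 had values of 1 sign and 5 did not (Col4a4, Col8a1, Col8a2, Col17a1 and Lamc3). The standard error of a reading over its 23 to 67 beads was 4.64% of the intensity at the median of the 42 genes and 6 arrays, and 8.67% at most.

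**Figure D4:**
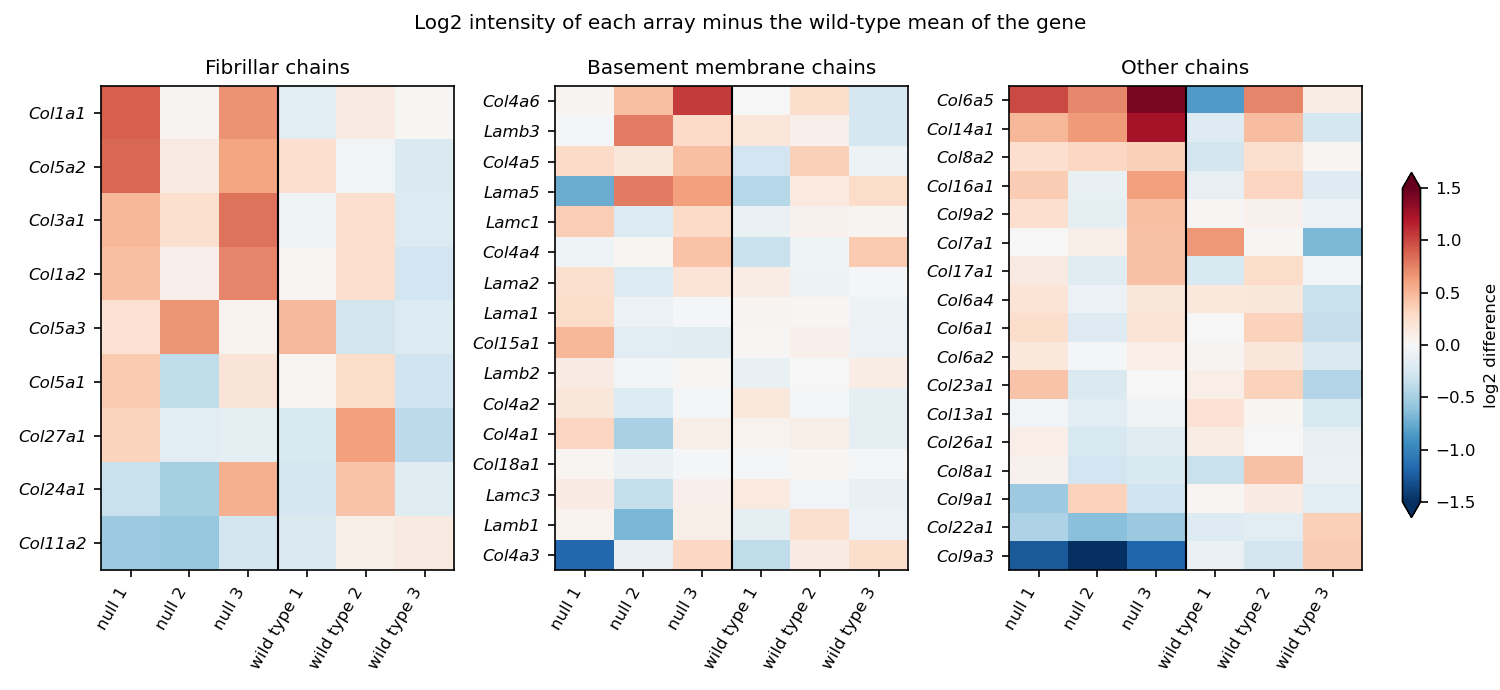
Log2 intensity of each array minus the wild-type mean of the same gene for the 42 tested genes, in 3 panels by chain type, with null arrays left of the line and wild-type arrays right of it; red is higher, blue lower, and the colour scale ends at 1.5 in either direction. Null replicate 2 is the lowest null array at 31 of the 42 genes, and wild-type replicate 2 the highest wild-type array at 25.

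Arrays of a group stood in different places over the chains. Null replicate 2 was the lowest null array at 31 of the 42 genes, among them 8 of 9 fibrillar and 13 of 17 other chains, where it was the lowest null array at 35.4% of all tested genes. Wild-type replicate 2 was the highest wild-type array at 25 of the 42, against 35.5% of all tested genes, and wild-type replicate 3 the lowest at 24, against 40.6%. An array's score is the mean log2 intensity of a gene set relative to its wild-type mean. The fibrillar score was 0.31, -0.05 and 0.35 in null arrays, against -0.01, 0.19 and -0.18 in wild-type arrays, so the groups overlapped. The basement membrane score was 0.03, -0.03 and 0.23 in null arrays, against -0.07, 0.08 and -0.01 in wild-type arrays, and the score of the other chains was 0.08, -0.14 and 0.17 in null arrays, against -0.06, 0.19 and -0.14 in wild-type arrays. Without null replicate 2 the differences were 0.78 for Col1a1, 0.59 for Col1a2 and 0.65 for Col3a1, none called (adjusted p from 0.405 to 0.625, limma). These were the highest values on leaving out 1 array. The lowest were 0.35 for Col1a1, 0.26 for Col1a2 and 0.37 for Col3a1.

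Markers of the cells that make or carry matrix were read on the same arrays, where over all tested genes 52.1% lay above 0. All 10 stromal markers were tested (9 above 0, 1 higher with an unadjusted p under 0.05, where the share over all tested genes was 4.26%), with scores of 0.30, 0.16 and 0.45 in null arrays, against 0.05, 0.17 and -0.22 in wild-type arrays, and a summed normalized intensity of 38936 to 46985 in null against 33864 to 41554 in wild type. Of 8 peritubular myoid and smooth muscle markers 7 were tested and all lay above 0, between 0.32 and 1.42, with 6 at an unadjusted p under 0.05, against 4.26% of all tested genes, and 5 with null above and no overlap of the groups, against 6.81%. Their scores were 0.31, 0.68 and 1.07 in null arrays, against 0.01, 0.12 and -0.13 in wild-type arrays. Their summed normalized intensity was 34667 to 51866 in null against 25816 to 31660 in wild type. The lowest of the 7 values, 0.32, was that of Lmod1, detected on every null array and 1 wild-type array. Lmod1 thus passed the filter mainly through the null arrays, and it is not among the 6 or the 5. Cnn1 was detected on no array. Null replicate 2 had the lowest fibrillar score of the null arrays and not the lowest peritubular score. None of these markers passed the adjusted test, and their part in the collagen values was not tested.

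Other cell types showed other patterns. Of 9 epididymis, rete and duct epithelium markers 7 were tested, with Pax2 and Epcam detected on no array. Of the 7, Cldn3 and Pax8 were detected on every null array and on no wild-type array, and Krt19 on every null array and 1 wild-type array, so they passed the filter mainly through the null arrays and enter the scores with bounded wild-type levels. Their scores were 0.54, 2.21 and 1.65 in null arrays, against -0.42, 0.36 and 0.06 in wild-type arrays, with summed normalized intensities of 1417 to 5781 in null against 895 to 1323 in wild type. The highest duct score thus stood on null replicate 2, the null array with the lowest fibrillar score. The 7 tested endothelial markers had scores from 0.10 to 0.42 in null arrays and from -0.12 to 0.08 in wild-type arrays. Of these markers 5 lay above 0, with Emcn highest at 0.72, and 2 lay below, Pecam1 at -0.09 and Cdh5 at -0.06. The 7 tested macrophage markers had scores from 0.29 to 0.61 in null and from -0.04 to 0.05 in wild type. The 9 tested Sertoli cell markers had scores of 0.04, 0.07 and -0.27 in null arrays, against 0.14, -0.05 and -0.09 in wild-type arrays. Of these markers 5 lay above 0 and 4 below, with Rhox5 lowest at -0.87. Rhox5 was detected on 1 null array and every wild-type array, so it passed the filter mainly through the wild-type arrays. The 8 tested germ cell markers had scores from -1.62 to -1.02 in null and from -0.27 to 0.35 in wild type. Among these, Nanos3 was detected on every wild-type array and on no null array, so it passed the filter through the wild-type arrays alone and its null level is only bounded. Of 8 cartilage and bone markers 1 was tested, Ibsp at 0.17 (SE 0.21), and Matn1, Chad, Bglap, Sp7 and Cnmd were detected on no array. The 5 tested Leydig cell markers all lay below 0, with scores from -0.63 to -0.14 in null and from -0.42 to 0.31 in wild type. The 3 tested markers of mesothelium had scores from 0.37 to 1.68 in null and from -0.84 to 0.62 in wild type, and the few tested markers of skeletal muscle and fat had medians of -0.08 and 0.11. The part of any of these cell types in the collagen values was not tested.

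**Figure D5:**
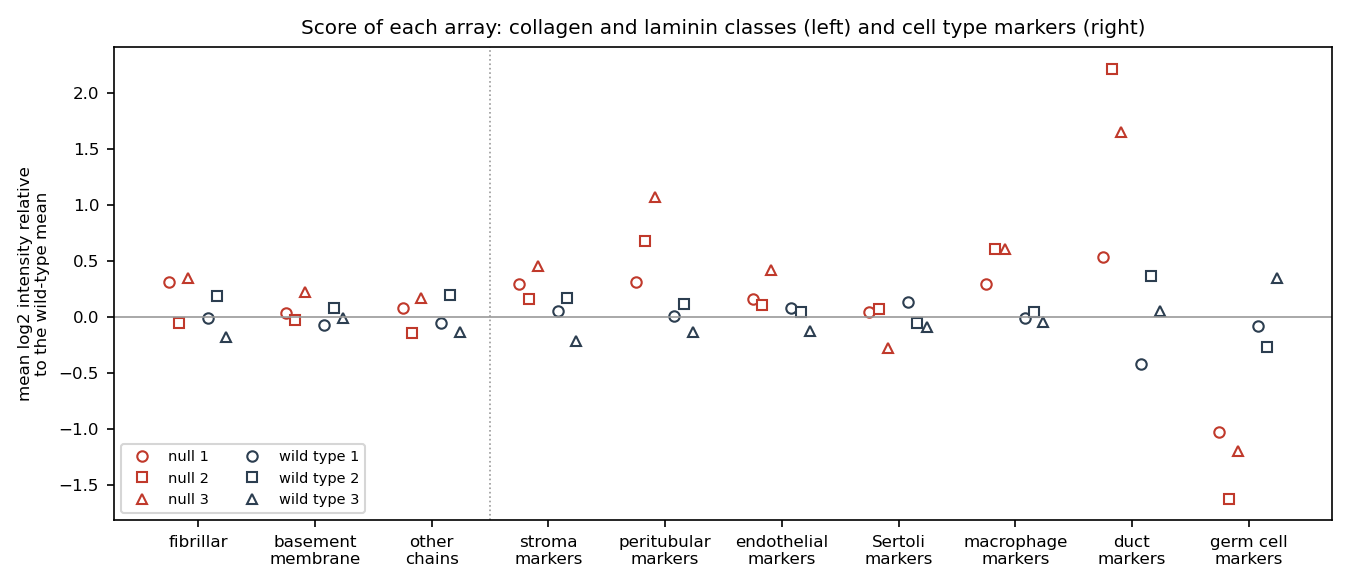
Scores of the 6 arrays, the mean log2 intensity of a gene set relative to its wild-type mean, for the 3 chain classes (left of the dotted line) and 7 marker lists (right of it); red symbols are null arrays, placed left, and dark symbols wild-type arrays, with circles, squares and triangles for replicates 1, 2 and 3. The chain classes lie between -0.18 and 0.35 with overlapping groups. The null and wild-type arrays do not overlap in the peritubular, endothelial, macrophage, duct and germ cell scores. Cldn3, Pax8 and Krt19 in the duct score and Lmod1 in the peritubular score passed the filter mainly through the null arrays. Nanos3 in the germ cell score passed through the wild-type arrays alone, and Rhox5 in the Sertoli score mainly through them. The endothelial groups nearly touch, at 0.10 for the lowest null array and 0.08 for the highest wild-type array.

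Genes that act on collagen and laminin chains were read in the same fit. Of 32 listed genes of collagen synthesis and processing, 22 were tested, with 0 called in either direction (limma; unadjusted p under 0.05 in 0 genes lower and 1 higher, against 4.76% and 4.26% of all tested genes) and a median of 0.12. Plod1, which hydroxylates collagen lysines, was at 0.38 (SE 0.14), Ppib, a prolyl isomerase of the endoplasmic reticulum, at 0.30 (SE 0.15), Fkbp14, another such isomerase, at 0.28 (SE 0.15), and Loxl1, a cross-linking oxidase, at 0.33 (SE 0.18). The null arrays lay above the wild-type arrays at 3 of the 22 tested genes, the first 3 of these, against 6.81% of all tested genes. They lay below at 0 of the 22, against 8.08%. The smallest adjusted p of the list was 0.456 (limma).

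Of 16 listed collagen and laminin receptors 12 were tested, with a median of 0.22. Values above 0 were found at 10 of the 12, against 52.1% of all tested genes. The null arrays lay above the wild-type arrays at 2 of the 12, Itga7 and Ddr1, against 6.81% of all tested genes. They lay below at 0 of the 12, against 8.08%. None was called (limma; unadjusted p under 0.05 in 0 genes lower and 1 higher, against 4.76% and 4.26% of all tested genes). Itga7, the laminin-binding integrin chain of muscle, was at 0.74 (SE 0.17, adjusted p = 0.192, limma), with no overlap of the groups, and at 0.26 without background correction and 0.24 on the authors' normalized values. Itgb4, the integrin chain of hemidesmosomes, was at 0.86 (SE 0.39), and at 0.41 without background correction and 1.36 without null replicate 1. Itga1, a collagen-binding integrin chain, was detected on 2 null arrays and 1 wild-type array. Its value was 0.47 (SE 0.24), and 0.16 without background correction and 0.21 without null replicate 3. Ddr1, a receptor tyrosine kinase for collagen, was at 0.29 (SE 0.17), and at 0.14 without null replicate 2.

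Other basement membrane proteins had a median of -0.04 over 15 tested of 18 listed genes, with 0 called (limma; unadjusted p under 0.05 in 0 genes lower and 1 higher, against 4.76% and 4.26% of all tested genes). The 1 higher was Ntn4, which passed the filter through the null arrays alone. Ntn4, a netrin that binds laminin, was detected on all null arrays and on no wild-type array (adjusted p = 0.362, limma), so its wild-type level is only bounded and no size is given. Tinagl1 was at 0.34 (SE 0.21), or 0.12 without background correction. The integrin ligand Npnt was at -0.27 (SE 0.18), or -0.08 without background correction. It was detected on 1 null array and every wild-type array, so it passed the filter mainly through the wild-type arrays. The fibulin Fbln1 was at 0.27 (SE 0.18), or 0.16 without null replicate 1 and 0.45 without null replicate 2.

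Of 16 listed genes of matrix breakdown and its inhibitors 12 were tested, with a median of 0.08 and 0 called (limma; unadjusted p under 0.05 in 1 gene lower and 0 higher, against 4.76% and 4.26% of all tested genes). Mmp9, a gelatinase that cleaves collagen IV and denatured collagen, had 5.83, 5.66 and 5.24 log2 units in null arrays, against 6.83, 6.92 and 6.49 in wild-type arrays, and every null value was lower than every wild-type value. Its difference was -1.17 (SE 0.20, adjusted p = 0.0992, limma), with -1.35 to -0.48 over the alternative settings, and 5 of 17 alternative settings called it lower (adjusted p from 0.0319 to 0.364, limma). Ctsk, a collagen-cleaving cathepsin, was at 0.49 (SE 0.23), or 0.75 without null replicate 1 and 0.31 without null replicate 3, the metalloproteinase Mmp23 at 0.28 (SE 0.14) and the inhibitor Timp2 at 0.33 (SE 0.17), or 0.21 without wild-type replicate 3.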

How the data were processed

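Probe intensities were deposited by the authors as scanner values, each the mean of the beads carrying 1 probe, per the file headers. The deposited table also gives, per the file headers, a detection p-value, the count of beads and the bead standard error (a signal in intensity units) for each probe and array. BeadStudio is named without a version in the submitters' processing notes, and the genome build is not given in the sources used here. The authors' normalized intensity values, whose method is not stated in the labels, were used as an alternative only.

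Intensities were background-corrected by normexp from detection p-values (offset 16), quantile-normalized and log2-transformed with neqc in limma 3.58.1 (R 4.3.3). Probes with a detection p under 0.05 on at least 3 of 6 arrays were tested with lmFit and eBayes over all 6 arrays, and p-values were adjusted by Benjamini-Hochberg over all 20597 probes. A gene was represented by its brightest tested probe, and differences are null minus wild type. Every tested collagen and laminin gene was named, with all 6 values for those of smallest p or highest wild-type intensity in each class and for the main collagen and laminin chains, and up to 4 genes of smallest p from each partner list. Gene symbols came from the platform annotation, which gave no symbol for 10378 probes and several symbols for 18. The fit was tested on simulated data. The members and lists were chosen with earlier results of these data known. Alternatives covered background, normalization, filter, variance model, array weights, replicate number, slide position and leaving out each array. With 3 arrays per group the number of arrays limits the precision.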

Additional observations from a re-analysis of the deposited data

How the results depend on the processing

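Of 710 gene values of the 42 tested collagen and laminin genes in 17 alternative settings, 705 stayed on the same side of the threshold. The other 5 were calls of Col9a3 as lower, so 1 collagen or laminin probe was called lower without background correction, with an offset of 50, on the authors' normalized values, with a trended and robust prior, and with the replicate block; 0 were called higher in any. There were 52 changes of sign in 25 genes, all of values smaller than their standard error, which were not counted as reversals. The cause of these shifts was not tested. Over all probes, 26 were called lower and 2 higher, against 53 and 9 with no background correction, 74 and 13 with an offset of 50, 45 and 8 with the authors' normalized values, 17 and 1 among probes detected on all 6 arrays, 1 and 1 with no filter on dim probes, 85 and 18 with a trended and robust prior, and 83 and 26 with array weights. Median scaling called 12 lower, and slide position as a covariate called 6 higher. Leaving out 1 array gave 0 to 49 lower and 1 to 29 higher: 49 and 29 without null replicate 1, 0 and 1 without null replicate 2, 1 and 1 without null replicate 3 or without wild-type replicate 1, 4 and 2 without wild-type replicate 2, and 3 and 1 without wild-type replicate 3. Deviations of null and wild-type arrays with the same replicate number had correlations of 0.16, -0.10 and 0.11. With different numbers the correlations ran from -0.18 to 0.09. Arrays of the same number lay side by side on the slide. The labels state no pairs, and the numbers were not taken as pairs in the main fit. With the replicate block 51 were called lower and 17 higher.

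The fibrillar median of 0.31 was 0.12 without background correction, 0.15 with an offset of 50, 0.11 on the authors' normalized values, 0.16 with array weights and 0.070 with no filter, and 0.21 to 0.43 with 1 array left out. The basement membrane median of 0.05 was 0.17 with median scaling and -0.0070 to 0.13 with 1 array left out. The median of the other chains was -0.081 to 0.21 with 1 array left out, and -0.081 came without wild-type replicate 3. The receptor median of 0.22 was 0.12 with no background correction, 0.15 with an offset of 50, 0.32 with median scaling, 0.12 with the authors' normalized values, and 0.18 to 0.29 with 1 array left out. The median of other basement membrane proteins, -0.04, was 0.086 with median scaling, 0.10 with array weights, and -0.085 to 0.092 with 1 array left out. Of the partner genes 1, Mmp9, was called lower with an offset of 50, a trended and robust prior, array weights, the replicate block and slide position. The call of Foxo1 probe ILMN_2656498 was also lost with median scaling (adjusted p = 0.0513, limma) and with no filter (adjusted p = 0.0669, limma).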
